A study of Mus musculus with 4 samples.

Results

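Livers of mice without the sugar-sensing transcription factor ChREBP, taken after 2 weeks on a diet of 70% fructose, were compared with livers of wild-type mice on regular chow. Every gene with a probe set annotated to it alone was a member, and each difference is the log2 level on the Chrebp-null fructose array minus that on the wild-type (WT) chow array. The comparison uses 2 of the series' 4 Affymetrix arrays. Of 41345 probe sets, 23521 carried 1 gene symbol and represented 22180 genes, and 11720 of these genes were at or above a floor (log2 3.52, the midpoint of all genes' mean levels) on at least 1 of the 2 arrays.

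All mice were C57BL/6, older than 2 months and had free access to food and water. The chow array held liver RNA pooled from 7 WT mice, and the Chrebp-null array held RNA pooled from 6 mice on fructose for 2 weeks. The other arrays, shown for reference, held pools of 7 WT mice after 3 weeks and 4 WT mice after 2 weeks of the same fructose diet. Males and females went into all 4 pools in proportions that the labels do not give, and the labels call the null mice Chrebp-/- without describing the allele. Null and chow pools thus differ in genotype, diet and mice at the same time, and these cannot be told apart in their difference. With 1 array per group no difference has an error, a standard deviation or a p-value. In pooled bulk tissue fewer cells of a type and less RNA per cell also cannot be told apart.

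ChREBP, encoded by Mlxipl, pairs with MLX and binds carbohydrate response elements when sugar metabolites build up in hepatocytes. It is known for switching on glycolysis, fructose breakdown, fatty acid synthesis and its own shorter isoform in liver. Fructose enters hepatocyte metabolism through ketohexokinase, past the regulated steps of glycolysis, which makes it a strong ChREBP stimulus in this tissue.

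In what follows the 4 levels of a gene are log2 values in the order WT chow, WT fructose 3 weeks, WT fructose 2 weeks and Chrebp-null fructose 2 weeks, and a difference is null minus chow unless stated otherwise. Array medians over probe sets lay between 3.11 and 3.17. Pearson's r between the null and chow arrays was 0.980 over all probe sets.

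The targeted gene was lowest in the null pool and was not absent from it. Mlxipl (probe set 17443185) read 9.25, 9.64, 9.83 and 8.09, so the null array stood 2.23-fold below chow, a difference of -1.16. The 10 nearest measured genes in the RefSeq gene order, 5 on each side, differed by -0.39 to 0.33. A probe set that lies partly outside a deleted segment can keep its signal, and the labels do not name the exons lost in these mice. MLX, the partner protein, was read at 7.65, 7.58, 7.27 and 7.33 for Mlx, a difference of -0.32.

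The null fructose liver differed from the chow liver by at least 2-fold at 362 of 11720 genes (3.09%). Of these, 194 genes were higher (1.66%) and 168 were lower (1.43%). The genes on the lower side were further out. Among them 42 were at least 4-fold and 11 at least 16-fold lower, with a median of 1.42 log2 units in size, while among the higher genes 27 were at least 4-fold and 2 at least 16-fold higher, with a median of 1.27. The median over all genes was 0.06, with 6733 genes above 0 and 4984 below. When dimmer levels were first raised to the floor, 169 genes were higher (1.44%) and 150 lower (1.28%), 2.72% in all. At the threshold, Mir677 was the last higher gene counted and Ckap2, at 0.999684, the first not counted.

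The 2 WT fructose pools, which share genotype and diet and no array with this comparison, give a measure of how far pools lie apart, although they also differ by a week of feeding. They differed by at least 2-fold at 276 of 11648 genes (2.37%; 1.27% higher and 1.1% lower at 3 weeks), and their median absolute difference was 0.234 against 0.218 between the null and chow pools. The null and chow arrays were thus no further apart than this pair at most genes, and the excess lay in the tail: the 99 percentile of the absolute difference was 1.57 against 1.28. The null to chow difference was larger than the gap between the WT pools at 49.7% of the 11720 genes, at 181 of the 194 higher genes and at 155 of the 168 lower ones. The genes of the last 2 counts were chosen by their null to chow difference, so those counts only describe them.

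**Figure D1:**
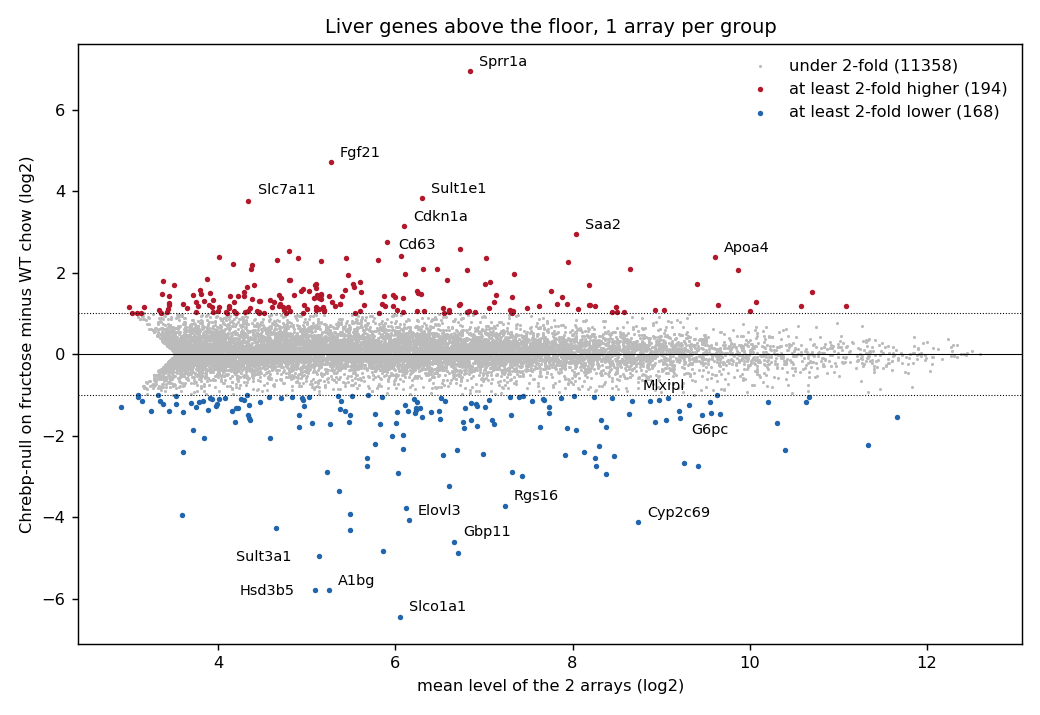
Log2 difference (Chrebp-null on fructose minus WT chow) against the mean log2 level of the 2 arrays for 11720 genes, 1 array per group; red and blue points are at least 2-fold higher (194) and lower (168), and dotted lines mark 2-fold. Sprr1a stands highest at 6.94, and Slco1a1 lowest at -6.44.

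Genes that ChREBP is known to drive were described first. Of 26 genes of this list above the floor, 7 lay at least 2-fold below chow in the null liver and 1 lay at least 2-fold above. Over all genes these shares were 1.43% and 1.66%. The 26 include Mlxipl, the targeted gene itself and 1 of the 7, and Mlx, which encodes the partner protein. The list median was -0.26 beside 0.06 over all genes. The corresponding medians of the WT fructose pools over chow were 0.36 at 3 weeks and 0.58 at 2 weeks; these differences share the chow array with the null difference. The list was thus low in the null pool on a diet under which the WT pools were high. Its members divided by pathway.

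On the lower side Rgs16 was furthest from chow, followed by genes of glucose release and sugar breakdown. Rgs16, a regulator of G protein signalling that follows carbohydrate supply in liver, read 9.10, 10.08, 10.43 and 5.38, which put the null pool 3.72 log2 units below chow (difference -3.72). G6pc, the catalytic subunit of glucose-6-phosphatase that releases free glucose, read 9.999, 10.70, 10.76 and 8.43 (-1.57). Pklr, liver pyruvate kinase and the last step of glycolysis, read 9.90, 10.41, 11.22 and 8.50 (-1.40). In all 3 genes the WT fructose pools were above chow and the null pool was below it. The first steps of fructose breakdown were lower as well: Khk, ketohexokinase, read 9.91, 10.51, 10.76 and 9.11 (-0.80), and Tkfc, which phosphorylates glyceraldehyde, read 9.62, 9.89, 10.39 and 8.55 (-1.07). Of 6 fructose uptake and fructolysis genes above the floor, 5 were below 0, and only Tkfc passed 2-fold; the list median was -0.53, and the fructose transporter gene Slc2a5 was at -0.61. The median absolute difference on this list, 0.53, was no larger than the gap between the WT fructose pools, 0.55.

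The rest of glycolysis did not share this. The median of 20 glycolysis genes was 0.11, and 1 of them, Pklr, passed 2-fold. Triose phosphate isomerase (Tpi1) was at 0.42 and Gapdh at 0.09, while the regulatory enzyme gene Pfkfb3, whose product makes the activator of phosphofructokinase, was at -0.63. Gluconeogenesis also moved in parts. Fbp1, fructose-1,6-bisphosphatase, read 10.96, 11.19, 11.18 and 9.997 (-0.96), the cytosolic PEP carboxykinase gene Pck1 was at -0.23, and its mitochondrial counterpart Pck2 read 4.46, 4.55, 5.06 and 5.82 (1.37). The median of 12 gluconeogenesis genes was -0.20. In the pentose phosphate pathway, Pgd, which makes NADPH from 6-phosphogluconate, read 7.35, 7.59, 8.30 and 9.03 (1.69), whereas the other 5 genes above the floor lay between -0.27 and -0.02.

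Fatty acid synthesis in the null fructose liver was near the chow level. Fasn, fatty acid synthase, read 10.15, 10.65, 11.40 and 9.94 (-0.21). Acly, which makes cytosolic acetyl-CoA, read 9.64, 10.06, 10.58 and 9.52 (-0.13). Scd1, the desaturase, read 11.91, 12.21, 12.15 and 11.92 (0.01). These enzymes were within 0.21 of chow, with both WT fructose pools above. Acaca, acetyl-CoA carboxylase, read 7.92, 9.12, 9.48 and 8.30 (0.37), and Me1, malic enzyme, read 9.91, 11.09, 11.20 and 9.43 (-0.48). Over 17 genes of the pathway the null median was -0.13, against 0.41 and 0.30 for the WT fructose pools over the same chow array. Thrsp, a lipogenic regulator, and Elovl3, a fatty acid elongase, were the 2 members at least 2-fold below chow (1.43% of all genes). Thrsp read 10.79, 11.28, 11.09 and 9.62 (-1.18). Elovl3, which is also a male-biased gene, is described with that group. Srebf1, encoding the insulin-driven regulator of this pathway, was at -0.66.

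Triglyceride and lipid droplet genes went both ways. Lpin1, a phosphatidate phosphatase that makes diacylglycerol, read 9.86, 10.50, 10.72 and 8.24 (-1.62), the only member of 23 at least 2-fold lower. Cidec, which fuses lipid droplets, read 4.67, 5.72, 5.04 and 6.38 (1.71), and the droplet coat gene Plin5 read 6.79, 6.38, 8.05 and 7.85 (1.06). Plin5 was also high in the 2-week WT pool, so that its null value stood apart from chow and from the 3-week pool only. The list median was 0.12. Pnpla3, a lipase gene regulated by feeding, was below the floor on chow and read 3.12, 6.49, 5.20 and 3.78, so it was raised on the WT fructose arrays and stood 0.26 above the floor in the null pool.

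**Figure D2:**
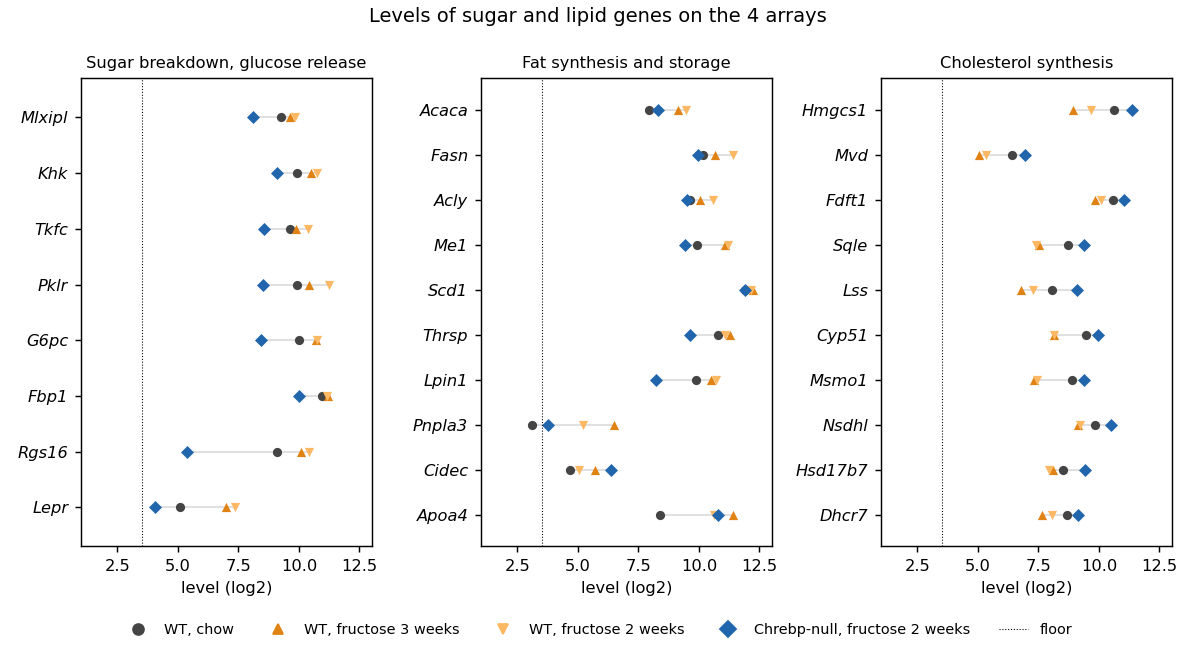
Log2 levels of sugar, fat and cholesterol genes on the 4 arrays (1 marker per array; dotted line, the floor at 3.52). The null array (diamonds) is left of chow (circles) for Rgs16, G6pc and Pklr, beside chow for Fasn and Scd1, and right of chow for the 10 cholesterol genes drawn, whose WT fructose arrays (triangles) are left of chow.

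Of the carriers of lipid in blood, apolipoprotein A-IV stood out on all 3 fructose arrays. Apoa4 read 8.41, 11.41, 10.63 and 10.80 (2.39), so the null pool was as high as the WT fructose pools. Lpl, lipoprotein lipase, read 6.37, 5.40, 6.27 and 7.42 (1.04). The other 14 of 16 lipoprotein genes were under 2-fold, with Apob at 0.14 and Mttp, the transfer protein that loads it, at 0.00 after rounding (9.85 on chow and 9.84 in the null pool).

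Cholesterol synthesis genes were higher in the null fructose pool than on chow and lower than chow in both WT fructose pools. Of 16 members above the floor 14 were above 0, the median was 0.49, and 1 was at least 2-fold higher (1.66% of all genes). The WT fructose medians over the same chow array were -0.80 at 3 weeks and -0.70 at 2 weeks. Lss, which closes the sterol ring, read 8.06, 6.79, 7.28 and 9.10 (1.04). Sqle, the step before it, read 8.73, 7.52, 7.40 and 9.40 (0.67), and Hmgcs1, an early step of the pathway, read 10.61, 8.94, 9.66 and 11.36 (0.76). For these genes the order of the arrays was null highest, chow next and the 2 WT fructose pools lowest. The exceptions below 0 were Ebp at -0.27 and Tm7sf2 at -0.14. Single genes here were mostly under 2-fold. The null to chow difference was larger than the gap between the WT pools at 14 of 16, against 49.7% of all genes. Srebf2, encoding the regulator of the pathway, read 7.29, 6.18, 6.95 and 7.94 (0.65); the median over the 13 genes of SREBP2 control and cholesterol uptake was -0.01.

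Bile acid genes had a median of -0.06 over 22 members. At least 2-fold lower were 4 of them (1.43% of all genes), and 1 was at least 2-fold higher (1.66%). Cyp7a1, the rate-limiting enzyme of the classic bile acid route, read 10.35, 9.94, 10.32 and 10.63 (0.27). Cyp8b1, which directs synthesis to cholic acid, read 8.21, 8.07, 7.98 and 5.77 (-2.44), low in the null pool alone. Cyp7b1 of the alternative route read 9.15, 8.46, 7.02 and 6.68 (-2.47), low on both 2-week arrays. Nr0b2, encoding the repressor SHP, followed the Cyp7b1 pattern at 7.18, 7.25, 6.03 and 5.79 (-1.39). Of the transporters, the uptake carrier gene Slco1a1 was the furthest below chow of all genes assessed and belongs to the male-biased group, and the efflux pump gene Abcc4 was higher, at 4.86, 4.46, 4.51 and 7.27 (2.41).

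In fatty acid oxidation the median of 24 genes was -0.05. Acot2, a mitochondrial acyl-CoA thioesterase, read 8.83, 6.01, 9.14 and 10.90 (2.06), and the 2 WT fructose pools were further apart for it than null and chow. Pdk4, the kinase that closes pyruvate dehydrogenase in fasting, read 5.12, 5.16, 5.79 and 7.09 (1.97), highest in the null pool. Cpt1a, the entry step of mitochondrial oxidation, was at 0.02. Oxidative phosphorylation showed 0 of 28 genes past 2-fold in either direction, a median of -0.04 and a range from -0.38 to 0.37.

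Genes of the integrated stress response, a programme in which phosphorylated eIF2alpha favours translation of ATF4 and ATF4 then drives amino acid supply and redox genes, were at least 2-fold higher in the null pool at 9 of 24 members and at least 2-fold lower at 0. In all 17 were above 0, and the median was 0.56. Over all genes 1.66% were at least 2-fold higher. After raising dimmer levels to the floor, 7 of the 24 passed 2-fold. Fgf21, a liver hormone that both ChREBP and ATF4 are known to induce, read 2.92, 3.96, 4.13 and 7.63. Since chow was below the floor, the null pool was at least 4.10 log2 units higher. It was the only one of the 26 ChREBP-driven genes at least 2-fold above chow. Slc7a11, the cystine importer, read 2.45, 2.79, 2.67 and 6.21, at least 2.69 higher. A second probe set of Slc7a11 was below the floor on all 4 arrays.

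The transcription factor genes of this response were also higher. Atf3 read 4.25, 4.27, 3.75 and 5.94 (1.69), Ddit3, encoding the cell death regulator CHOP, read 4.54, 4.31, 4.79 and 5.96 (1.42), and Nupr1, a stress-induced chromatin protein gene, read 4.23, 4.68, 4.40 and 5.96 (1.73). The null array was above the other 3 in each. Asns, asparagine synthetase, read 4.65, 4.35, 4.44 and 6.22 (1.57), and Ddit4, an mTORC1 inhibitor gene, read 4.71, 4.30, 5.74 and 6.36 (1.65). Not every gene known to respond to ATF4 was higher. Trib3 was at -0.19, Chac1 at -0.22 and Sesn2 at -0.31, and Atf4 itself was at 0.45. Chaperones of the endoplasmic reticulum were not higher as a list: 0 of 20 passed 2-fold, and the median was -0.16. Hspa5, the chaperone BiP, read 8.43, 8.09, 8.43 and 8.75 (0.32), and Herpud1 was at -0.41.

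Promoter letters were set beside these values because part of the stress list was higher and part was not. The C/EBP-ATF composite element was searched as TGATGCAA on both strands in RefSeq promoters (GRCm38.p6, 250 bases before to 50 after each start). It was found at 6 of the 21 listed genes that have a promoter in the table (28.6%), against 1.03% of 27025 genes and 0.790% of those above the floor. These 6 were Atf3, Chac1, Slc7a11, Fgf21, Nupr1 and Vldlr. The looser TGATGNAA, of which TGATGCAA is a subset, was found at 8 of the 21 (38.1%) against 4.51% of all genes and 3.00% of those above the floor, with Asns and Trib3 added. Motif forms and the promoters shown were chosen after the matches had been seen, so these shares are descriptions. The promoters of 4 genes that were higher in the null pool and of Chac1, which was not, are printed 5′ to 3′ on the gene's strand, with matches to the element in capitals; TTGCATCA is the same element read on the other strand. Slc7a11 holds 2 matches and the others 1.
Fgf21, chr7:45615441-45615740, minus strand: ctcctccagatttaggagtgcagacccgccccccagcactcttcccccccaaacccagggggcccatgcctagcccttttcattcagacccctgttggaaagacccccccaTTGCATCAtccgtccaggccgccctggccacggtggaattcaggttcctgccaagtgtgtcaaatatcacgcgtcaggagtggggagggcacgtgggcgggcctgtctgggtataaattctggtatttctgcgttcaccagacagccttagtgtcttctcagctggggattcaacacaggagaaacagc
Slc7a11, chr3:50443564-50443863, minus strand: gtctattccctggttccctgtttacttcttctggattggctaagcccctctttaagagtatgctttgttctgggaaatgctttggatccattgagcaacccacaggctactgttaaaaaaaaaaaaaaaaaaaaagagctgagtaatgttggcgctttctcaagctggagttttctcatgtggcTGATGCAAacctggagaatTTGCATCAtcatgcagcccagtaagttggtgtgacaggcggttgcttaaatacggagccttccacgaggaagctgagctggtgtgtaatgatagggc
Atf3, chr1:191183284-191183583, minus strand: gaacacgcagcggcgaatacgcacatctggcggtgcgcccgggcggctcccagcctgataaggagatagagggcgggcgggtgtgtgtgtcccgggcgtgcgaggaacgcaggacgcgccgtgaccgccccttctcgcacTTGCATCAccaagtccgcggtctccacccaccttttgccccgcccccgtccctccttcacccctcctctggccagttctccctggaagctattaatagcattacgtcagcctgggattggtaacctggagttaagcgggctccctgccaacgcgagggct
Nupr1, chr7:126625421-126625720, minus strand: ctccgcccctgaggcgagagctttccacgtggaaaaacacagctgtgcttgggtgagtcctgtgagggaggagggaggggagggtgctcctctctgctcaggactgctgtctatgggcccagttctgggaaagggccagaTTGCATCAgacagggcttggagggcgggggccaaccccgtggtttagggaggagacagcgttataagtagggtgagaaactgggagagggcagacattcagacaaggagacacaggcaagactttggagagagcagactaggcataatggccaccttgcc
Chac1, chr2:119350992-119351291, plus strand: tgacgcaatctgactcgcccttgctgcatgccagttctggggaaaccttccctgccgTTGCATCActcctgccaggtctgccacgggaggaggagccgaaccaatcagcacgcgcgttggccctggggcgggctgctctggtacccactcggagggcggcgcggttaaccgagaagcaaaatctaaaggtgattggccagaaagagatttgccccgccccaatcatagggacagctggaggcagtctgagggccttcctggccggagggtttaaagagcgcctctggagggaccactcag

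Fgf21 and Chac1 thus each carry 1 match, at -139 and -193 from the start, with differences of at least 4.10 and of -0.22. The carbohydrate response element was searched in the same windows as 2 E-box-like parts 5 bases apart, on both strands. It was found at 1 of the 21 ChREBP-driven genes with a promoter in the table, against 0.0518% of all genes and 0.0541% of those above the floor. That gene was Pklr, whose downstream start carries it at -170 from that start, with the match in capitals.
Pklr, chr3:89136373-89136672, plus strand: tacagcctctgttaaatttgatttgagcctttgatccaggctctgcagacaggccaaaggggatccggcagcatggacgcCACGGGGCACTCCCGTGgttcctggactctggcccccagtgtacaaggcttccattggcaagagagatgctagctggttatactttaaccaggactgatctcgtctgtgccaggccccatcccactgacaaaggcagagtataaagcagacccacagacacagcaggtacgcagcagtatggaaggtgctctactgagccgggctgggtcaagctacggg

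The single E-box CACGTG, which many other factors bind, was found at 5 of the 21 (23.8%) against 8.09% of all genes and 11.7% of genes above the floor. A gene without a match may carry the element outside this window.

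Genes known to be driven by NRF2, the sensor of oxidants and electrophiles, and genes of glutathione handling were assessed next. Of the 22 assessed, 8 were higher by 2-fold or more (1.66% of all genes) and 0 lower (1.43%), and the median was 0.65. Among the 8 were Slc7a11, also counted in the stress list, and Abcc4, also given with the bile acid genes. The null to chow difference was larger than the gap between the WT pools at 18 of 22, against 49.7% of all genes. Nqo1, a quinone reductase, read 5.79, 5.36, 5.85 and 7.84 (2.05). Srxn1, which repairs oxidised peroxiredoxins, read 5.27, 4.66, 5.11 and 7.35 (2.08). Cbr3, a carbonyl reductase, was below the floor on chow and read 3.05, 2.65, 2.85 and 5.28, at least 1.76 higher. For these enzymes the 3 WT arrays lay close together and the null array stood above them.

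Glutathione synthesis was higher at its limiting step: Gclc, the catalytic subunit of glutamate-cysteine ligase, read 9.48, 9.39, 10.02 and 10.54 (1.06), while the modifier subunit Gclm was at 0.45. Gstm3, a glutathione transferase, read 9.94, 9.47, 10.56 and 11.47 (1.53), and Cbr1 read 9.44, 9.08, 9.99 and 10.71 (1.27); for both, the 2-week WT pool was also above chow. Nfe2l2, which encodes NRF2, was at 0.19, and Hmox1, heme oxygenase, was at 0.59. The 1 clear exception in the list was Osgin1, which was at -0.61 and highest on chow. The antioxidant response element core TGACNNNGC was found in 6 of 18 promoters of the list (33.3%), against 14.0% of all genes and 16.7% of genes above the floor.

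Fetal and injury-associated genes of hepatocytes had a list median of 0.92 over 16 members. At least 2-fold higher were 6 of them (1.66% of all genes), and 0 were lower. Sprr1a, which is not in that list and was named for its size, is a cornified envelope protein gene of squamous epithelium that injured tissue can express. It read 3.37, 3.61, 5.08 and 10.31, at least 6.79 log2 units above chow, the largest difference of all genes assessed. Within the list, Cd63, a tetraspanin of lysosomes and exosomes, read 4.53, 4.73, 6.03 and 7.29 (2.76). Anxa2, a membrane-binding annexin, read 4.25, 3.94, 4.41 and 5.79 (1.54), and Krt8, a keratin of the hepatocyte cytoskeleton, read 7.99, 7.35, 7.96 and 9.02 (1.03). Krt8 was under 2-fold after lowess normalization. Sprr1a and Cd63 were also higher on the 2-week WT array than on chow, and Anxa2 and Krt8 were close to chow there. Fetal genes of the list were not higher: Afp was at 0.31 and Igf2 at 0.01.

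Cdkn1a, the cyclin-dependent kinase inhibitor p21, read 4.53, 5.63, 6.74 and 7.67 (3.14), with all 3 fructose arrays above chow and the null array the highest. Other p53-driven genes differed less, with Mdm2 at 0.76 and Ccng1 at 0.52. Of the 15 p53 and cell death genes, 2 were at least 2-fold higher (1.66% of all genes), Cdkn1a and Gadd45b, and the median was 0.02. Gadd45b, at 1.08, was under 2-fold after quantile or lowess normalization. Of the 29 cell cycle genes assessed, 8 were higher by 2-fold or more (1.66% of all genes), 1 was lower (1.43%) and the median was 0.62. Cdk1, Top2a, Aurkb, Bub1, Bub1b, Foxm1, Kif20a and Cdc6 are not among the 29, being below the floor on all 4 arrays. Those of the replicative helicase made up 4 of the 8. Mcm6 read 4.16, 4.48, 4.27 and 5.76 (1.59), Mcm2 was at 1.35, Mcm4 at 1.23 and Mcm5 at 1.18. Mcm10 went the other way, at 6.13, 6.64, 5.55 and 4.73 (-1.40). Most of these genes were dim: after raising dimmer levels to the floor, 6 were higher and the median was 0.41. With the floor at the 75 percentile, 6 members were left, with a median of 0.36. Mki67, a mark of cycling cells, read 4.59, 5.58, 4.72 and 5.25 (0.65), so the 3-week WT pool was higher than the null pool.

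Among immediate early genes, Jun read 6.36, 5.60, 6.20 and 8.32 (1.96), while Egr1 was at 0.06 and Junb at -0.72; the median of 18 genes was 0.20.

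**Figure D3:**
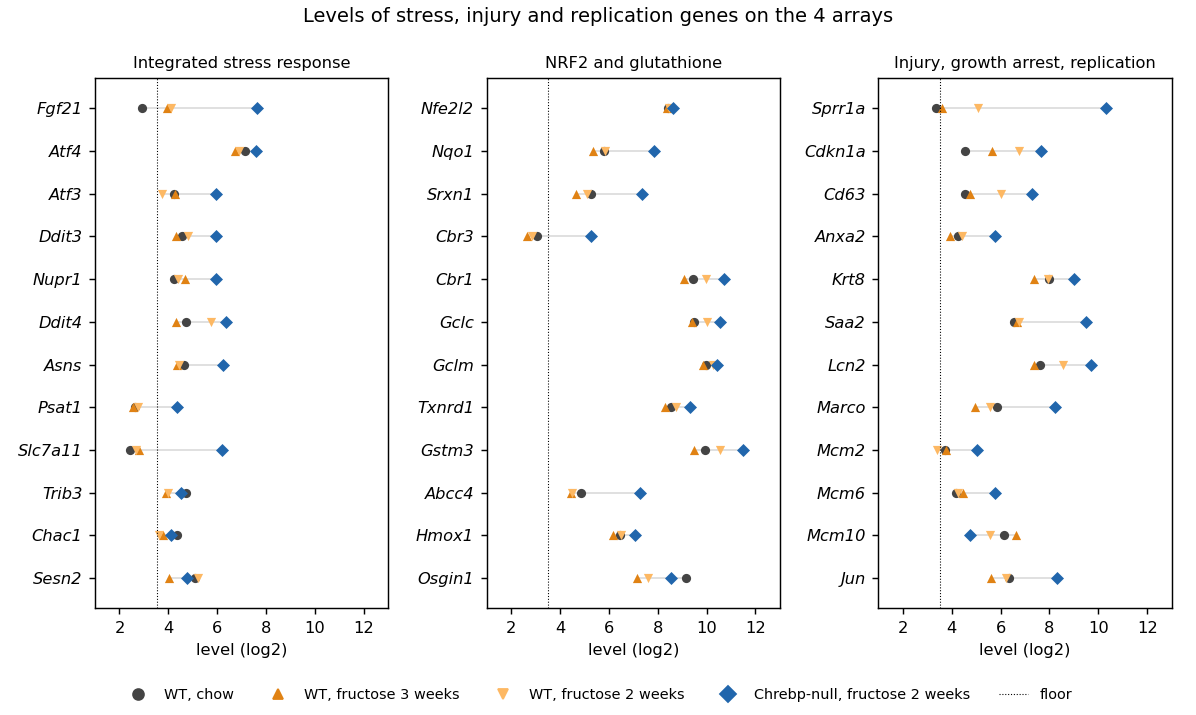
Log2 levels of stress, injury and replication genes on the 4 arrays (1 marker per array; dotted line, the floor at 3.52). The null array (diamonds) is furthest right for Fgf21, Slc7a11, Nqo1, Srxn1 and Sprr1a, and not for Trib3, Chac1, Sesn2, Osgin1 and Mcm10.

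Acute phase genes, which hepatocytes secrete in inflammation, were mostly close to chow, with a median of 0.12 over 24. At least 2-fold higher were 4 of them (1.66% of all genes), and 0 were lower (1.43%). Saa2, serum amyloid A, read 6.56, 6.66, 6.76 and 9.51 (2.94), and Lcn2, which binds bacterial iron carriers, read 7.61, 7.35, 8.55 and 9.69 (2.08). Orm2 read 8.55, 8.26, 7.44 and 10.27 (1.72), whereas its near copies Orm1 and Orm3 were at 0.17 and -0.51. Haptoglobin (Hp) was at 0.43 and Crp at -0.11. Chemokine and interferon-induced lists were near the median of all genes, at 0.01 (19 genes) and 0.14 (23 genes), each with 1 gene at least 2-fold higher, Ccl6 at 1.23 and Oasl1 at 1.18. Il6, Tnf and Ccl2 were below the floor on both arrays.

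Markers of other liver cells were read beside these groups. Of 18 Kupffer cell and macrophage markers assessed, 2 were higher by 2-fold or more (1.66% of all genes) and 0 lower (1.43%). The list median was 0.23, and the mean level was 6.45, 6.40, 6.69 and 6.91 over the 4 arrays. Marco, a scavenger receptor of macrophages, read 5.84, 4.95, 5.55 and 8.21 (2.37), and Gpnmb, a lysosomal glycoprotein gene of macrophages, read 2.94, 3.21, 3.40 and 4.80, at least 1.28 higher. Of the 18, 16 were above 0. Of the others, Cd5l at 0.51, Vsig4 at 0.37, Clec4f at 0.20 and Timd4 at 0.05 were under 2-fold, as was Cd68, a lysosomal macrophage protein, at 0.94. Mmp12, macrophage elastase, read 3.72, 3.59, 4.30 and 6.07 (2.35) and was the only one of 20 matrix and fibrosis genes past 2-fold, with a median of 0.07. Of the neutrophil markers 12, S100a8, S100a9 and Ly6g among them, were below the floor on both arrays, and the 1 above it, Csf3r, read 3.18, 3.50, 3.54 and 3.76. T and NK cell markers had a median of -0.28 over 6 genes, with mean levels of 4.47, 4.31, 4.16 and 4.16. Hepatocyte markers had a median of -0.06, sinusoidal endothelial markers 0.06 and stellate cell markers 0.09. Cholangiocyte markers, 6 above the floor and 2 (Krt19 and Cftr) below it, had a median of 0.36, a mean level of 4.90, 5.14, 5.14 and 5.25, and 1 gene past 2-fold on each side, Muc1 at 1.82 and Onecut1 at -1.05. The part of these cells in the differences of the stress, acute phase and matrix genes was not tested.

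Many of the large lower differences lay in genes that male and female livers express unequally. Of 21 male-biased genes above the floor, 21 were below 0, 14 were at least 2-fold lower (1.43% of all genes) and 0 higher. The median was -1.46. Slco1a1, an organic anion transporter, read 9.27, 9.58, 9.07 and 2.83, at least 5.75 log2 units below chow. Hsd3b5, a steroid dehydrogenase, read 7.99, 8.27, 7.47 and 2.20, at least 4.47 below chow. Elovl3, which lengthens saturated fatty acids, read 8.19, 8.80, 8.04 and 4.12 (-4.07), and Cyp4a12a, a fatty acid hydroxylase, read 8.002, 8.16, 7.28 and 4.23 (-3.78). For these 4 the WT pools lay within about a log2 unit of each other and the null pool was far below. Mup21, a urinary protein gene, read 6.67, 7.84, 6.10 and 3.79 (-2.88), and Serpina1e, an alpha-1-antitrypsin gene, read 10.80, 10.32, 10.04 and 8.05 (-2.75). Some members were also low on the 2-week WT array: Selenbp2, which encodes a selenium-binding protein, read 9.63, 8.70, 7.99 and 6.89 (-2.74), and Cyp7b1, given above, had the same order. Over the list the 2-week WT pool stood at a median of -0.50 from chow and the 3-week WT pool at 0.02; both share the chow array with the null difference. The null to chow difference was larger than the gap between the WT pools at 20 of the 21, against 49.7% of all genes.

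Female-biased genes were lower as well. Of 23 above the floor, 10 were at least 2-fold lower (1.43% of all genes) and 1 higher (1.66%), with a median of -0.55. The WT fructose medians over the same chow array were -0.01 at 3 weeks and -0.71 at 2 weeks. The 2-week WT pool thus lay further below chow on this list than the null pool did. Sult3a1, a sulfotransferase, read 7.62, 8.02, 3.50 and 2.67, at least 4.09 below chow, and A1bg, a plasma glycoprotein gene, read 8.14, 6.97, 3.85 and 2.34, at least 4.62 below. Cyp3a16 read 7.64, 9.63, 2.28 and 3.33, at least 4.12 below. These 3 were high on the chow and 3-week WT arrays and low on both 2-week arrays. The WT fructose pools were themselves far apart on this list, with a median absolute gap of 0.73. The null to chow difference exceeded the gap between the WT pools at 12 of 23 genes, near the 49.7% over all genes. Cyp2b13 read 9.86, 8.93, 8.81 and 6.91 (-2.95), and Cyp2a4 read 11.15, 11.31, 10.85 and 9.47 (-1.68), with the null pool lowest.

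Sult1e1, estrogen sulfotransferase, was the exception on the higher side and the largest higher difference among genes above the floor on both arrays. It read 4.39, 5.15, 3.39 and 8.22 (3.83). Fmo4, a flavin monooxygenase gene, was next at 0.98. Several of these genes belong to families of near-identical copies (Cyp2b, Cyp3a, Cyp4a, Mup, Serpina1 and Sult), so a value may hold signal from a copy.

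Sex-linked transcripts differed between the pools too. Xist, transcribed from the inactive X chromosome in females, read 8.84, 8.77, 8.56 and 7.04 (-1.81). The Y-linked genes Uty, Eif2s3y and Kdm5d were higher in the null pool, at 1.37, 1.23 and 1.16. Uty read 4.03, 4.67, 4.87 and 5.39. The null pool thus had the lowest Xist and the highest Y-linked levels of the 4 arrays. The part of pool composition by sex in the differences of the sex-biased genes was not tested.

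The growth hormone axis, whose pulse pattern sets sex-biased expression in liver, was measured alongside. Of 16 genes, 3 were at least 2-fold lower (1.43% of all genes) and 0 higher, with a median of -0.42. Igfals, which stabilises circulating IGF1, read 7.51, 7.30, 6.40 and 6.30 (-1.21). Bcl6, a repressor that is higher in male liver, read 7.11, 5.45, 7.28 and 5.70 (-1.42), so that the 3-week WT pool was as low as the null pool. Onecut1 read 8.77, 10.05, 8.12 and 7.71 (-1.05). Low values of Igfals were shared by the 2-week arrays, and those of Bcl6 by the null and 3-week arrays. Ghr, the growth hormone receptor, was at -0.69, Igf1 at -0.55 and Stat5b, the signal transducer, at -0.09.

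**Figure D4:**
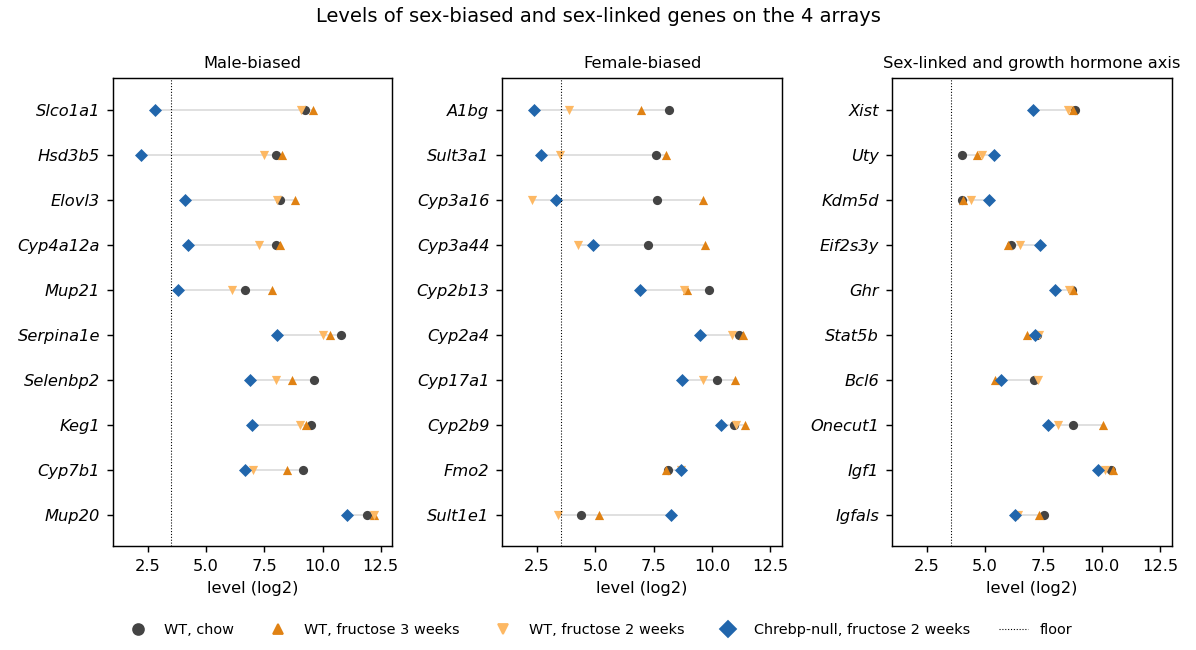
Log2 levels of male-biased, female-biased, sex-linked and growth hormone genes on the 4 arrays (1 marker per array; dotted line, the floor at 3.52). The null array (diamonds) is far left of the 3 WT arrays for Slco1a1, Hsd3b5, Elovl3 and Cyp4a12a, both 2-week arrays are left for A1bg, Sult3a1 and Cyp3a16, and the null array is furthest right for Uty, Kdm5d and Eif2s3y.

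Other genes far from chow belonged to no single pathway. Cyp2c69, a cytochrome P450, read 10.80, 10.94, 9.46 and 6.67 (-4.13), and Sult2a8, a bile acid sulfotransferase, read 10.59, 10.43, 9.96 and 7.92 (-2.67). Gbp11, an interferon-inducible GTPase gene of a multicopy family, read 8.97, 8.23, 3.80 and 4.37 (-4.60), and Ctse, the protease cathepsin E, read 8.27, 8.08, 4.26 and 3.45, at least 4.75 below chow. Gbp11 and Ctse were low on both 2-week arrays, while Cyp2c69 and Sult2a8 were lowest in the null pool. On the higher side, Dhrs9, a retinol dehydrogenase gene, read 3.53, 3.41, 5.06 and 6.07 (2.54), and Nrg1, a growth factor for ERBB receptors, read 4.01, 4.08, 4.60 and 6.30 (2.28). Its receptor gene Erbb4 read 5.01, 4.84, 4.06 and 3.35, at least 1.49 below chow. Csad, which makes the taurine precursor, read 6.81, 5.16, 9.07 and 9.08 (2.27), equally high on both 2-week arrays. The tubulin genes Tuba8 and Tubb2a were at 2.31 and 2.08. Among pseudogenes, Serpina4-ps1 was the lowest, at 9.15 on chow and 4.26 in the null pool.

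Several liver programmes were close to chow as lists. Amino acid breakdown had a median of -0.18 over 30 genes with 1 past 2-fold, Ass1 of the urea cycle, which read 4.39, 4.54, 5.86 and 5.78 (1.39). Pericentral and periportal genes had medians of -0.17 and -0.11, with 1 gene higher in each, Slc1a4, an amino acid transporter gene, at 1.78 and again Ass1. Glycogen genes had a median of 0.08 with 0 of 14 past 2-fold, and Gys2, liver glycogen synthase, was at -0.79. Clock genes had a median of -0.17; Nr1d1, the repressor REV-ERBalpha, read 8.98, 8.49, 8.88 and 7.91 (-1.08). Insulin signalling had a median of -0.15, and Irs2 was at -0.71. In the xenobiotic list 2 of 26 genes were higher, Cyp2c54 was lower at -1.17, and the median was -0.02.

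A list was called shifted when at least 3 members were above the floor and its median lay 0.3 or more from that of all genes. Of the 35 pathway lists 10 met this: the higher ones were hepatocyte injury, NRF2, cell cycle, integrated stress response and cholesterol synthesis, and the lower ones were male-biased, female-biased, fructolysis, growth hormone and ChREBP-driven genes. The sex-linked list was left out of this count because Xist and the Y-linked genes oppose each other. The minimum of 3 members and this omission were set after the values had been seen. Lists and their members were also chosen with earlier results of these data known, so these calls are descriptions only. With no floor, and under quantile or lowess normalization, the ChREBP-driven list came less than 0.3 from the median of all genes. Of the marker lists, the cholangiocyte and T and NK cell lists met it. With no floor neither did, at 0.15 over 8 and -0.01 over 14 genes, and the cholangiocyte list did not with levels raised to the floor or under quantile normalization, at 0.30 in each.

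**Figure D5:**
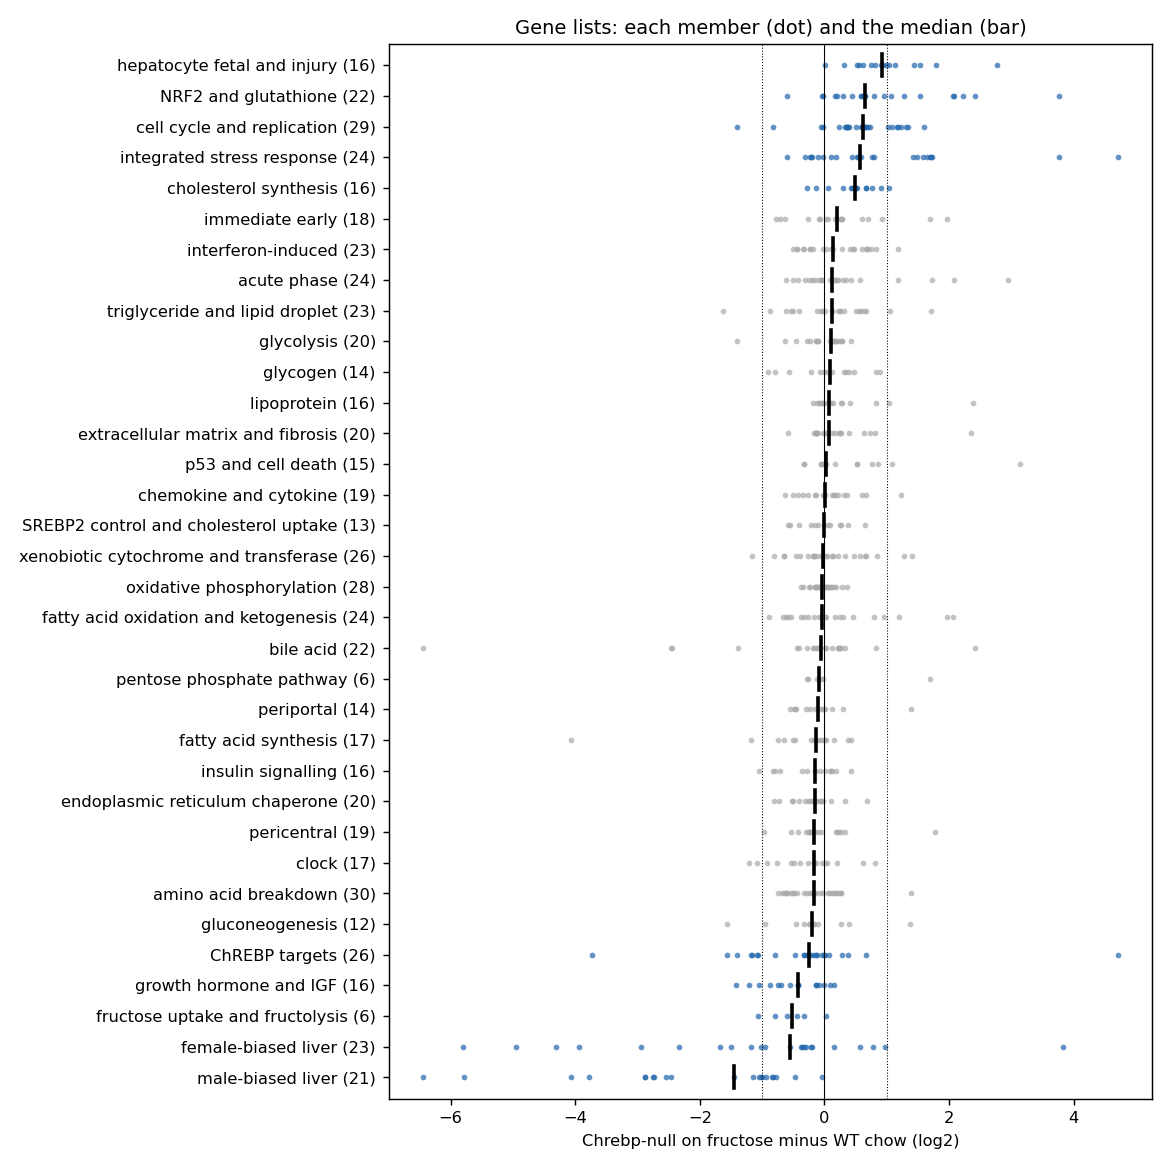
Log2 difference (Chrebp-null on fructose minus WT chow) of each member above the floor (dots) of 34 pathway lists, with the number of members in parentheses and the list median as a black bar; blue marks lists whose median lies 0.3 or more from that of all genes. Medians run from -1.46 (male-biased) to 0.92 (hepatocyte fetal and injury), and most lists sit near 0.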

How the data were processed

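Liver RNA was extracted, pooled by genotype and diet, and labelled with an Affymetrix WT Plus kit (1 array per group), per the labels. For each array the authors deposited a log2 value per probe set, made with affy and RMA per the submitters' processing notes. RMA subtracts background, normalizes arrays and compresses large and dim differences. Not given in the sources used here: versions, genome build, and whether all 4 arrays were normalized jointly.

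The deposited log2 values were used unchanged. Gene names came from the platform annotation: 1814 with several symbols and 16010 with none entered no gene value, and 23328 Entrez identifiers matched RefSeq's gene table, changing 0 symbols. For 1082 genes with several probe sets, the brightest set by mean over the 4 arrays stood for the gene. A gene was assessed when the null or chow array reached the floor, the 50 percentile over genes of the mean level, and counted at 2-fold. A bound ("at least") sets the dimmer level at the floor. Arrays give no depth, and the number of arrays limits precision.

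Groups came from the labels. There were 47 gene lists, 35 of pathways and 12 of cell type markers, and 767 of their 860 genes were measured. Members and lists were chosen with earlier results of these data known. Named genes are Mlxipl, the 15 with the largest difference in each direction above the floor on both arrays, the 10 in each direction with 1 array below it (predicted genes, pseudogenes, small RNAs and symbols without a described function left out), members of each list, and genes at least 2-fold on one side of chow in the null pool and on the other in both WT fructose pools. Not all are printed. The counting was tested on simulated data. The alternatives tried: no floor, the floor at the 75 percentile, both arrays at or above the floor, levels set at the floor, median centring, quantile normalization, lowess (fraction 0.3), the mean of a gene's probe sets, every probe set, and thresholds of 1.5-fold and 3-fold. Promoter sequences are from RefSeq. Python 3.11.15, numpy 2.4.6, pandas 2.3.3, statsmodels 0.14.6 and matplotlib 3.10.9 were used.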

Additional observations from a re-analysis of the deposited data

Results flagged for a closer look

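Lepr, the leptin receptor gene, was at least 2-fold below chow in the null pool and at least 2-fold above it in both WT fructose pools. It read 5.10 on WT chow, 7.00 (3 weeks) and 7.36 (2 weeks) on WT fructose and 4.04 in the null pool, a null minus chow difference of -1.06. Cyp2c55, a cytochrome P450 gene, showed the opposite arrangement at 6.61, 5.47, 5.10 and 8.02, a difference of 1.41. Its other, dimmer probe set differed by -0.24, and the mean of its probe sets was under 2-fold. With 1 array per group, the difference between genotypes was not tested for either gene, and both values share the chow array.

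Probe sets that entered no gene value also differed. Of 840 above the floor with several gene symbols, 16 were at least 2-fold higher in the null pool and 22 lower, 4.52% in all. Of 5266 above the floor with no gene symbol, 436 were higher and 223 lower, 12.5% in all, against 3.18% of the 12125 with 1 symbol. The annotation used here does not say what these unnamed probe sets measure.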

How the results depend on the processing

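The counts moved with the threshold: at 1.5-fold 874 genes were higher and 560 lower, and at 3-fold 49 were higher and 68 lower. With the floor at the 75 percentile, 97 genes were higher, and fewer genes were then assessed (5973). Under the other alternatives counts ran from 151 to 207 higher and from 132 to 178 lower. The share of calls on the higher side was 53.6%, 48.0% under quantile normalization or lowess and 45.3% with the higher floor. The male-biased median was -1.10 with no floor and -1.97 with the higher floor. The cholangiocyte median turned to -1.06 with the higher floor, where 1 marker was left. The list of ChREBP-driven genes kept its direction but came less than 0.3 from the median of all genes with no floor and under quantile normalization and lowess, at -0.26, -0.29 and -0.30. Of 108 named genes at least 2-fold apart, 0 reversed, but most alternatives could not reverse one. Changing the floor or counting every probe set left the difference of a named gene as it was. Raising levels to the floor cannot turn a sign, and median centring is a small shift common to all genes. Only quantile normalization, lowess and the mean of a gene's probe sets could have reversed a gene. With levels set at the floor, Bhlhe41, Psat1 and Spink1 went under 2-fold; under quantile normalization Gadd45b did, under lowess Gadd45b, Krt8, Lpl and Plin5, and with the mean of a gene's probe sets Cyp2c55 and Lpl. Mlxipl ran from -1.19 to -1.14. Leaving out a replicate could not be done with 1 array per group. No paired analysis was possible because each group has 1 array. Low signal limits genes below the floor, and the number of arrays limits all values.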
